A study of Mus musculus with 8 samples.

Results

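The nuclear-encoded subunits of respiratory complexes III, IV and V, with cytochrome c, were examined in pancreatic tissue of Bach2KO and Bach2WT mice. Members were the protein-coding genes of the deposited table whose names begin with Uqcr, with Cox4 to Cox8 or with Atp5, plus Cyc1 and Cycs. This rule uses no measured value and found 45 of the 21434 genes in the table, of which 9 belong to complex III, 18 to complex IV, 17 to complex V and 1 is cytochrome c. A total of 40 members passed the filter on low counts and were tested, among 12820 genes tested in all, and the 5 that did not pass are all in complex IV. Bach2KO mice carried the constitutive, whole-body C57BL/6N-Bach2tm1b(EUCOMM)Wtsi/leg allele, and Bach2WT mice were the wild-type controls. Both groups were untreated and 18 weeks old, and each held 4 mice, of which 2 were female and 2 male. In each group mice 1 and 2 are the females and mice 3 and 4 the males. The knockout was not restricted to any cell type of the pancreas.

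Bach2 itself did not check the labels in this tissue, since it had 3 to 16 counts per library in Bach2KO mice and 4 to 31 in Bach2WT mice, did not pass the filter, and overlapped between the groups. Library totals ranged from 72299745 to 172029360 counts. The tissue label was borne out by acinar transcripts, whose 15 markers summed to 555700 to 634400 CPM, counts scaled to a common library size, in Bach2KO mice. In Bach2WT mice the same sum was 632500 in mouse 1 and 760100 to 845000 in the other 3. Bach2KO mouse 3 stood apart from the other 7 libraries on the first principal component, at 101.8 against -34.8 to 7.2. Library sizes for CPM were scaled by the trimmed mean of M values (TMM). In bulk tissue, fewer cells of a type and less RNA per cell cannot be told apart.

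The respiratory chain of the inner mitochondrial membrane passes electrons from nutrients to oxygen and pumps protons as it does so. Complex III takes electrons from ubiquinol and hands them to cytochrome c, the small soluble carrier, and complex IV passes them on to oxygen. Complex V, the ATP synthase, lets the protons flow back through its membrane part and uses the turning of its central stalk to make ATP. Most subunits are encoded in the nucleus and imported, while the catalytic cores of complexes III and IV and a piece of the membrane part of complex V also need subunits encoded in mitochondrial DNA. Acinar cells, the bulk of the exocrine pancreas, make and secrete digestive enzymes and rely on mitochondrial ATP to do so.

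Nuclear genes of the respiratory chain are known for promoters that carry sites of nuclear respiratory factor 1 (NRF1), ETS-family factors and YY1. Promoter stretches of 4 members are shown, which were chosen by their values below. Uqcrc1 and Atp5h were the members whose CPM was lower in every Bach2KO mouse than in every Bach2WT mouse, Cox7b was the member with the reverse order, and Uqcr11 had the lowest log2 fold change. Each stretch runs from 100 bases before to 50 bases after the gene's start, 5′ to 3′ on the gene's strand, in RefSeq sequence of build GRCm38.p6, and capitals mark matches to the NRF1 letters GCATGCGC or the ETS letters CCGGAAG on either strand. They lie at chr9:108936548-108936697 (plus strand), chr10:80406772-80406921 (minus), chr11:115419870-115420019 (minus) and chrX:106015600-106015749 (plus).
Uqcrc1: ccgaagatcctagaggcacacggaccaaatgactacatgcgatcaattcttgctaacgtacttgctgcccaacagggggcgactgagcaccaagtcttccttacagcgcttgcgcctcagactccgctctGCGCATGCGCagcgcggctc
Uqcr11: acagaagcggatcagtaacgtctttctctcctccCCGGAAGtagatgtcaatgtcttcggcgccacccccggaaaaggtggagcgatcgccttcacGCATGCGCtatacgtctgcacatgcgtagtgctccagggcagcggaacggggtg
Atp5h: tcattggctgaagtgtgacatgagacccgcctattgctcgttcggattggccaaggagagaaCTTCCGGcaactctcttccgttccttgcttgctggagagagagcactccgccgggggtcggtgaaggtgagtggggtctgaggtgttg
Cox7b: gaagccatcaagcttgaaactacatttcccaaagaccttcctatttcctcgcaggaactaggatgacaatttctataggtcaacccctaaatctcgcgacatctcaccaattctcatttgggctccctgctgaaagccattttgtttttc

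The Uqcrc1 stretch holds 2 overlapping NRF1 matches, 1 on each strand, which begin 31 and 33 bases into the transcribed part. Uqcr11 holds an NRF1 match beginning at -4 and an ETS match at -66, and Atp5h holds an ETS match at -38. Cox7b holds none of these letters in its window of 250 bases before to 50 after the start. Nor do the windows of Cox7a2, Atp5g1, Atp5o and Atp5d, whose estimates below were under 0. Whether the letters go with the direction of a member was not tested. RefSeq windows were found for 34 members, as 37 windows. NRF1 letters occurred in 7 of them (18.9%), against 2.71% of all 32851 windows of this length. The ETS letters occurred in 11 (29.7%), against 8.86%, and the YY1 letters AAGATGGC in 3 (8.11%), against 2.75%. The TATA letters TATAAA occurred in 4 (10.8%), against 13.6%. At least one of the NRF1, ETS and YY1 motifs was in 16 of the 37 windows (43.2%) and in 13.3% of all windows. Both strands were searched, and NRF1 letters overlap their own reverse complement. A match is a description of the sequence and was not tested for binding.

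Levels between genes were compared per length, as recomputed FPKM, which is CPM divided by gene length in kilobases. Subunits of the same complex differed widely in level. The tested members ranged from 84.2 FPKM for Cox6a1 to 0.11 for Cox4i2, as means over the 8 mice. After Cox6a1 came Cox4i1 with 80.2, Uqcr11 with 51.2, Uqcrh with 48.7, Cox8a with 42.6 and Cox6b1 with 40.2. In complex III the small subunits Uqcrh, Uqcrq (36.8 FPKM) and Uqcr10 (14.9 FPKM) stood above the large core proteins Uqcrc1 (8.94 FPKM) and Uqcrc2 (4.79 FPKM), while the small subunit Uqcrb (5.02 FPKM) lay below Uqcrc1 and near Uqcrc2. In complex V the highest level was that of Atp5b, the catalytic beta subunit, with 36.5 FPKM. Cycs, the somatic cytochrome c, had 1.22 FPKM and so lay below every tested member except Cox4i2. The gene lengths in the table span all annotated exons, so a gene with long alternative ends, such as Atp5l with 6443 bases and 1.87 FPKM, is placed low by this scale. Neighbours in the order, such as Cox6a1 and Cox4i1 or Uqcr11 and Uqcrh, overlapped between mice.

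**Figure D1:**
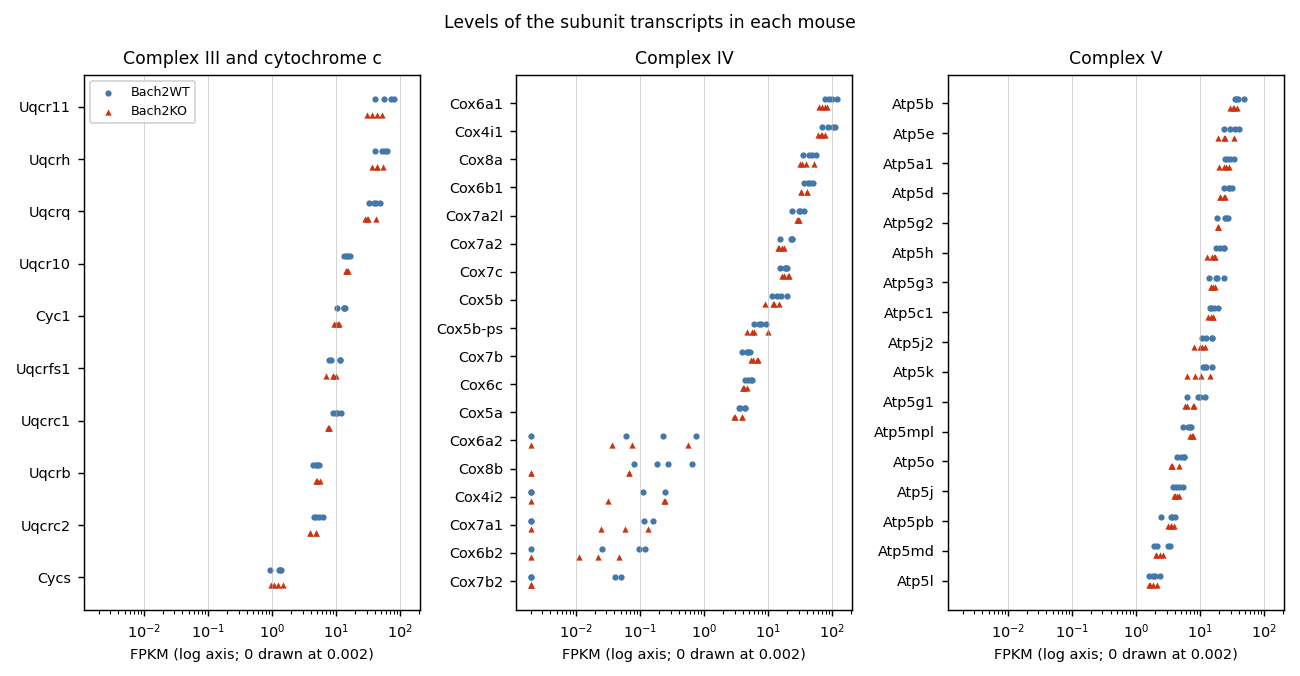
Recomputed FPKM (log axis) of the 45 members in each mouse, by complex, with circles for Bach2WT and triangles for Bach2KO mice and a value of 0 drawn at 0.002. The tissue-restricted subunits of complex IV lie far below their broadly expressed partners in every mouse.

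With TMM scaling most members of all 3 complexes had lower estimates in Bach2KO than in Bach2WT mice, but no single member passed the test. The median log2 fold change was -0.28 over complex III, -0.23 over complex IV and -0.25 over complex V, against 0.05 over all genes tested. These directions turned on library totals with no scaling factor, where the 3 medians were 0.03, 0.08 and 0.07 against 0.35 over all genes, and 0 members were lower at an unadjusted p under 0.05. The lower values are therefore relative to the other genes of the library. Of the 40 tested members, 34 had a log2 fold change below 0 (85.0%), as did 45.3% of all genes. In edgeR's quasi-likelihood test with Benjamini-Hochberg adjustment 0 members were called at an adjusted p under 0.05, the smallest adjusted p being 0.53, and 0.0078% of all genes were called. At an unadjusted p under 0.05, 9 members were lower in Bach2KO mice (22.5%), where 3.56% of all genes were, and 1 was higher, where 3.9% of all genes were. DESeq2 also called 0 members, with a smallest adjusted p of 0.14, and called 0.483% of all genes. In that fit 13 of the 40 tested members had an unadjusted p under 0.05, counted in either direction. Of all 21434 genes 762 were higher and 636 lower at that p. These 21434 include the genes of low count that were left out of the edgeR test. On simulated counts DESeq2 made more false calls than its nominal share and edgeR came closer to it, so the DESeq2 counts are given as an alternative only. The simulation gave all genes a single spread between mice (dispersion), below the common dispersion of 0.192 in these data. It therefore does not show which tool makes more false calls here. All these counts rest on the same 8 mice, so the members are not independent of one another.

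**Figure D2:**
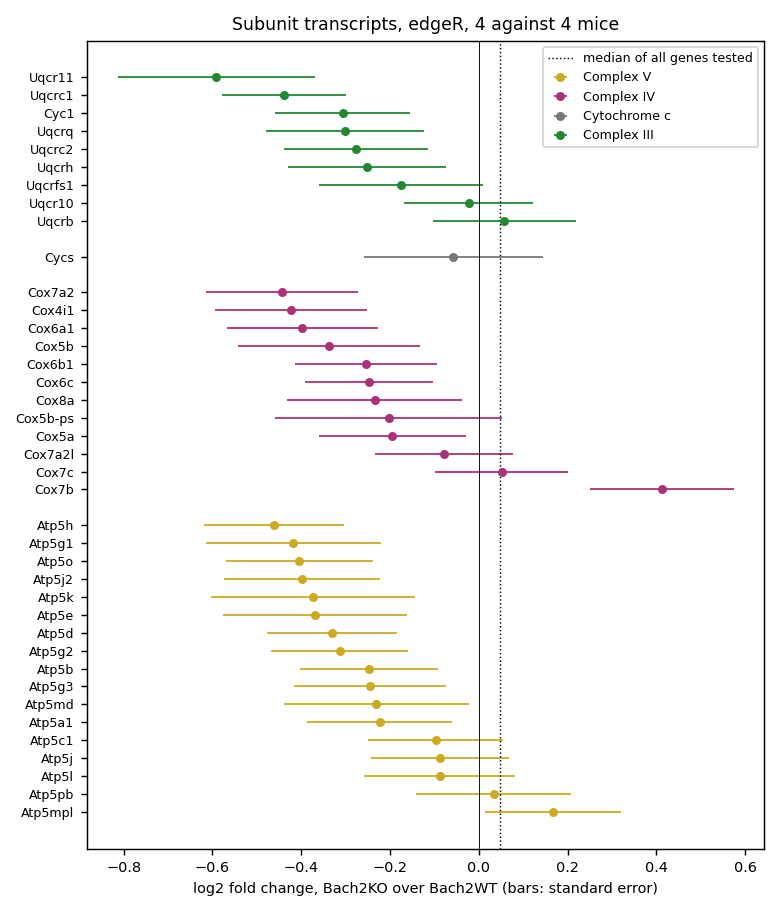
Log2 fold change of Bach2KO over Bach2WT (edgeR, bars show the standard error) of 39 tested members, ordered within each complex, with the median of all genes as a dotted line. Cox4i2, with 0 to 38 counts per library, is left out, and Cox7b stands above 0 where most other members stand below it.

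The count of 9 members depended on single mice. Leaving out Bach2WT mouse 1 gave 17 and leaving out Bach2KO mouse 3 gave 16. The count was 3 without Bach2KO mouse 1 or Bach2KO mouse 2, 5 without Bach2KO mouse 4 or Bach2WT mouse 3, 4 without Bach2WT mouse 4 and 2 without Bach2WT mouse 2. The count over all genes at the same edgeR threshold moved too. It was 623 of 13632 without Bach2WT mouse 1, 632 of 13701 without Bach2KO mouse 3 and 273 of 12785 without Bach2WT mouse 2. Leaving out each remaining mouse gave 288 to 454, and all mice gave 457 of 12820. Bach2WT mouse 1 had the lowest CPM of its group for 31 of the 40 tested members, and its value lay inside the range of the 4 Bach2KO mice for 28. Bach2WT mouse 2 was the highest of its group for 29. Among Bach2KO mice, mouse 1 was lowest for 22 members and mouse 3 highest for 21.

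**Figure D3:**
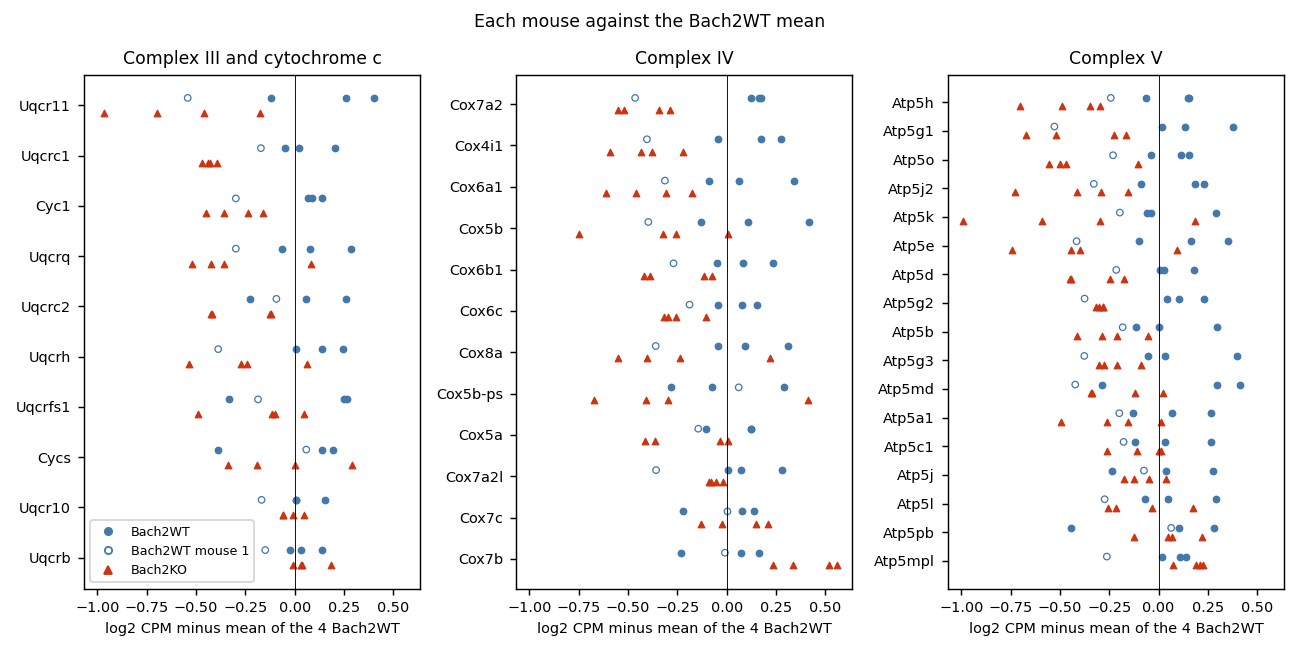
Log2 CPM of 39 tested members in each mouse minus the mean of the 4 Bach2WT mice, by complex, with triangles for Bach2KO, filled circles for Bach2WT and an open circle for Bach2WT mouse 1. The open circle lies among the triangles for most members.

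In complex III the core proteins and the catalytic subunits had estimates in the same direction. Uqcrc1, a core protein facing the matrix (ENSMUSG00000025651, chr9:108765701-108778691 in build mm39), had 30.6, 31.2, 31.5 and 32.3 CPM in Bach2KO mice 1 to 4. It had 37.6, 42.9, 40.9 and 48.7 CPM in Bach2WT mice 1 to 4. The groups did not overlap, which was true in this direction of 2 of the 40 tested members (5.0%) and of 1.92% of all genes. The Bach2KO mice lay within 2 CPM of one another, a narrower spread than in Bach2WT mice, and the mean was 0.738 times that of Bach2WT mice. The log2 fold change was -0.44 (SE 0.14), with an unadjusted edgeR p of 0.0076 and an adjusted p of 0.53. Cyc1, the heme-bearing cytochrome c1, had a log2 fold change of -0.31 (SE 0.15). Uqcrc2, the partner core protein, had -0.28, and Uqcrfs1, the Rieske iron-sulfur protein, had -0.18. Over these 4 subunits the median was -0.29.

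The small subunits of complex III were less uniform. Uqcr11, the smallest subunit (ENSMUSG00000020163, chr10:80238831-80242664 in build mm39), had 19.6, 23.6, 33.8 and 27.8 CPM in Bach2KO mice and 26.3, 50.5, 35.2 and 45.8 CPM in Bach2WT mice. The groups overlapped through Bach2WT mouse 1, which lay below Bach2KO mice 3 and 4. The log2 fold change of -0.59 (SE 0.22) was the lowest of all members, with an unadjusted edgeR p of 0.019 and an adjusted p of 0.62. Uqcrq and Uqcrh, the hinge protein beside cytochrome c1, had log2 fold changes of -0.30 and -0.25, and Uqcr10 had -0.02. Uqcrb, known as the ubiquinone-binding protein, was the only complex III member above 0. It had 4.41, 4.28, 4.87 and 4.39 CPM in Bach2KO mice and 3.88, 4.73, 4.39 and 4.23 CPM in Bach2WT mice, and its log2 fold change was 0.06 (SE 0.16). Cycs had 5.09, 3.65, 3.30 and 4.17 CPM in Bach2KO mice and 4.34, 4.59, 4.76 and 3.18 CPM in Bach2WT mice. These values overlapped widely, and the log2 fold change was -0.06 (SE 0.20).

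Complex IV held the members furthest apart. Cox7a2, the broadly expressed form of a small subunit, had 13.7, 14.0, 15.8 and 16.4 CPM in Bach2KO mice and 14.5, 22.7, 22.5 and 21.9 CPM in Bach2WT mice. Only Bach2WT mouse 1 overlapped the Bach2KO mice. The log2 fold change was -0.44 (SE 0.17), with an unadjusted edgeR p of 0.022. Cox4i1, the largest nuclear subunit and an early one in assembly, had 93.0, 108, 120 and 104 CPM in Bach2KO mice. In Bach2WT mice it had 106, 158, 136 and 170 CPM, and again mouse 1 alone lay inside the other group's range. Its log2 fold change was -0.42 (SE 0.17; unadjusted p 0.028, edgeR). Cox6a1 had 43.4, 48.3, 58.8 and 53.6 CPM in Bach2KO and 53.4, 83.9, 62.4 and 69.2 CPM in Bach2WT mice, with a log2 fold change of -0.40 (SE 0.17; unadjusted p 0.036, edgeR). The adjusted p of these 3 members lay between 0.63 and 0.65.

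Cox7b, a small X-linked subunit (ENSMUSG00000031231, chrX:105059306-105066056 in build mm39), was one of 3 tested complex IV members with an estimate above 0, beside Cox7c and Cox4i2, and the only one whose groups did not overlap. It had 8.33, 7.15, 8.10 and 6.65 CPM in Bach2KO mice and 5.62, 4.82, 5.95 and 6.34 CPM in Bach2WT mice. Every Bach2KO mouse was above every Bach2WT mouse, an order found in 1 of the 40 tested members (2.5%) and 2.57% of all genes. The mean was 1.33 times that of Bach2WT mice. The log2 fold change was 0.41 (SE 0.16), with an unadjusted edgeR p of 0.024 and an adjusted p of 0.63. Each group held females and males in equal number. Cox7c, a further small subunit, had a log2 fold change of 0.05 (SE 0.15). The zinc-binding subunit Cox5b had -0.34, Cox6c -0.25 and Cox5a -0.19. Cox7a2l, known for joining complexes III and IV, had -0.08. Cox5b-ps is listed as protein-coding under a pseudogene name and had -0.20. It shares a run of 147 bases with Cox5b, so counts of both are uncertain.

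Several complex IV subunits exist as a broadly expressed form and a form known from muscle, lung or testis, and the broadly expressed forms supplied nearly all of the transcripts here. Cox6b1 had 23.5, 22.9, 29.1 and 28.3 CPM in Bach2KO and 25.5, 36.1, 32.5 and 29.7 CPM in Bach2WT mice, with a log2 fold change of -0.25. Cox6b2, its testis form, had 0 to 14 counts per library. Cox8a had 19.2, 21.2, 32.7 and 23.8 CPM in Bach2KO and 21.9, 30.0, 27.2 and 34.8 CPM in Bach2WT mice, with a log2 fold change of -0.23. Cox8b, its muscle and brown fat form, had 0 to 31 counts. The muscle forms Cox6a2 and Cox7a1 had 0 to 35 and 0 to 8 counts, and Cox7b2 had 0 to 4. Cox4i2, the lung form, had 0.025, 0, 0.18 and 0.20 CPM in Bach2KO mice and 0.089, 0, 0.19 and 0 CPM in Bach2WT mice. It was the only one of the 6 to be tested, and its log2 fold change of 0.48 had an SE of 1.37. The highest share that such a form reached of its partner's FPKM in any mouse was 1.35%, for Cox8b. Low counts of this kind limit any comparison between the genotypes, and a count of 0 allows up to 3 counts, or up to 6 where a read pair was counted through each of its mates.

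In complex V the peripheral stalk, which holds the catalytic head still, contained the lowest estimate and one of the 2 above 0. Atp5h, subunit d of this stalk (ENSMUSG00000034566, chr11:115306515-115310788 in build mm39), had 19.0, 22.1, 25.2 and 24.4 CPM in Bach2KO mice and 26.2, 34.4, 29.7 and 34.6 CPM in Bach2WT mice. The groups did not overlap, though Bach2WT mouse 1 lay close to Bach2KO mouse 3. The log2 fold change was -0.46 (SE 0.16), with an unadjusted edgeR p of 0.011 and an adjusted p of 0.55. Atp5o, which caps the stalk on the head, had 6.87, 7.14, 9.38 and 7.30 CPM in Bach2KO and 8.60, 11.2, 10.9 and 9.82 CPM in Bach2WT mice. Its log2 fold change was -0.40 (SE 0.17; unadjusted p 0.030, edgeR), and Bach2KO mouse 3 lay above Bach2WT mouse 1. Atp5j had -0.09 and Atp5pb, the b subunit, 0.03 (SE 0.17).

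The 5 subunits of the F1 head and central stalk all had estimates below 0, with a median log2 fold change of -0.25. Atp5d, the delta subunit of the central stalk, had 39.2, 39.3, 47.3 and 45.1 CPM in Bach2KO and 46.1, 54.5, 53.8 and 60.6 CPM in Bach2WT mice. Bach2WT mouse 1 lay below Bach2KO mouse 3, and the log2 fold change was -0.33 (SE 0.15; unadjusted p 0.042, edgeR). Atp5e, the epsilon subunit, had -0.37 (SE 0.21). The catalytic beta subunit Atp5b had -0.25, the alpha subunit Atp5a1 -0.22 and the gamma subunit Atp5c1, the rotating shaft, -0.10.

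The proton-carrying c ring is made of 1 mature protein encoded by 3 genes, which had like CPM but unlike length. Per length, Atp5g1 had 8.18 FPKM, Atp5g2 21.5 and Atp5g3 17.0, as means over the 8 mice. Atp5g1 had 28.1, 31.2, 38.3 and 40.0 CPM in Bach2KO and 31.1, 58.2, 45.4 and 49.2 CPM in Bach2WT mice. Atp5g2 had 31.7, 32.5, 32.5 and 32.0 CPM in Bach2KO and 30.4, 46.3, 40.6 and 42.4 CPM in Bach2WT mice. Atp5g3 had 32.6, 32.0, 34.1 and 37.1 CPM in Bach2KO and 30.4, 52.1, 38.0 and 40.4 CPM in Bach2WT mice. Bach2WT mouse 1 lay below all Bach2KO mice for Atp5g2 and Atp5g3. The log2 fold changes were -0.42, -0.31 and -0.24. Shares of their summed CPM, which is not scaled to length, compare each gene between the genotypes only. Of this sum, Atp5g1 supplied 34.1% ± 3.1 in Bach2KO and 36.2% ± 1.6 in Bach2WT mice (SD, n = 4 each). The difference was smaller than the SD in Bach2KO mice. Atp5g2 supplied 32.1% ± 2.4 and 31.9% ± 1.6, and Atp5g3 33.8% ± 1.2 and 31.9% ± 1.5, with overlapping mice in each case.

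Of the small membrane subunits, Atp5j2 had 26.6, 33.1, 39.6 and 36.0 CPM in Bach2KO and 35.1, 51.6, 41.4 and 50.1 CPM in Bach2WT mice. Its log2 fold change was -0.40 (SE 0.17; unadjusted p 0.040, edgeR), and Bach2WT mouse 1 again lay within the Bach2KO range. Atp5k, which takes part in joining synthase dimers, had -0.37 (SE 0.23), Atp5md -0.23 and Atp5l -0.09. Atp5mpl had the highest log2 fold change in complex V. It had 8.35, 9.06, 9.20 and 9.27 CPM in Bach2KO and 6.62, 8.57, 8.74 and 8.02 CPM in Bach2WT mice. Bach2KO mouse 1 overlapped the Bach2WT mice, and the log2 fold change was 0.17 (SE 0.15).

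In summed CPM mouse 1 was the lowest of each genotype and Bach2WT mouse 2 the highest of its own in all 3 complexes. Complex III stood at 70.8, 77.0, 91.6 and 80.5% of the Bach2WT mean in Bach2KO mice 1 to 4 and at 79.9, 116, 100 and 104% in Bach2WT mice 1 to 4. Complex IV stood at 72.5, 79.3, 92.5 and 82.4% against 78.8, 113, 100 and 108%. Complex V stood at 76.3, 80.7, 84.3 and 90.2% against 82.6, 119, 98.7 and 99.5%. In each, Bach2WT mouse 1 lay among the Bach2KO mice. The acinar markers stood at 72.9, 82.1, 83.2 and 77.3% in Bach2KO mice and at 82.9, 99.7, 111 and 107% in Bach2WT mice, with mouse 1 again lowest of its group. Of these 15 markers, 6 were lower at an unadjusted p under 0.05, where 3.56% of all genes were, led by Ctrl (log2 fold change -0.66, adjusted p 0.35, edgeR). The part of the acinar transcripts in the lower subunit values was not tested.

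**Figure D4:**
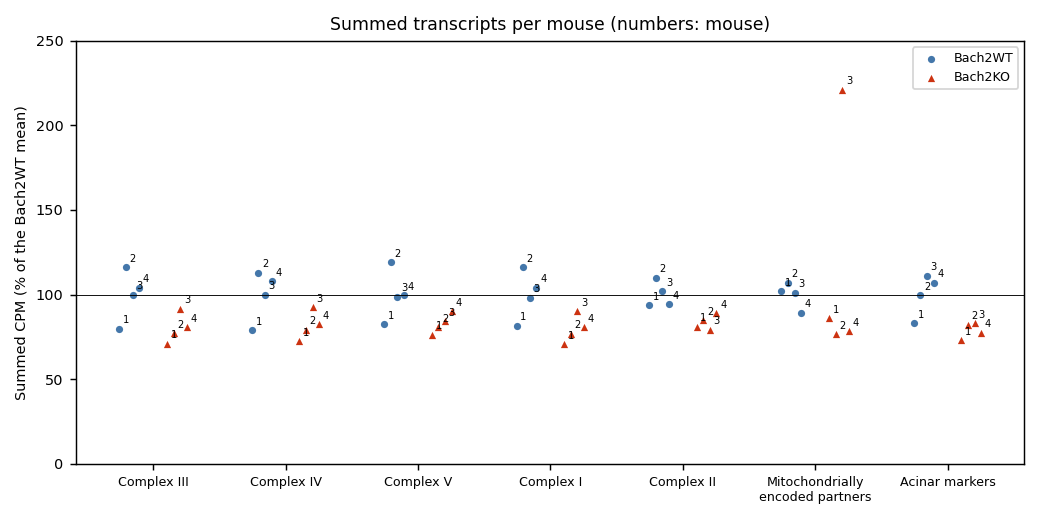
Summed CPM of each gene set per mouse, as a percentage of the mean of the 4 Bach2WT mice, with circles for Bach2WT, triangles for Bach2KO and the mouse number beside each point. Bach2WT mouse 1 lies near 80% for complexes III, IV and V, and Bach2KO mouse 3 lies at 221% for the mitochondrially encoded partners only.

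Other genes of the pathway gave estimates on both sides of 0. Complex I, whose 39 subunits had a median log2 fold change of -0.34, had 15 lower at an unadjusted p under 0.05, where 3.56% of all genes were, led by Ndufa3 (-0.80, adjusted p 0.35, edgeR). Of the 4 complex II subunits, which have no mitochondrially encoded partner, 1 was lower at that p, the iron-sulfur subunit Sdhb (-0.31). Estimates of the mitochondrially encoded partners of complexes III, IV and V lay on the other side of 0, with Bach2KO mouse 3 far above the other mice. All 5 tested, mt-Cytb, mt-Co1, mt-Co2, mt-Co3 and mt-Atp6, had estimates above 0 with a median of 0.26, and mt-Co3 had the smallest p (0.25, edgeR). Their sum was 1565 CPM in Bach2KO mouse 3 and 610, 543 and 554 CPM in Bach2KO mice 1, 2 and 4. In Bach2WT mice 1 to 4 it was 725, 757, 719 and 633 CPM. In this sum, made up mostly of mt-Co1 and mt-Cytb, Bach2KO mice 1, 2 and 4 lay below every Bach2WT mouse. Bach2KO mouse 3 was set apart here after its value was seen. Without it mt-Cytb kept this order, but mt-Co1, mt-Co2, mt-Co3 and mt-Atp6 overlapped between the groups. For example, mt-Co1 had 356 CPM in Bach2KO mouse 1 and 352 CPM in Bach2WT mouse 4.

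Among factors that build the complexes, those with the smallest p also had estimates below 0. Uqcc2, a complex III assembly factor, had a log2 fold change of -0.71 (SE 0.22), and 1 of 6 such factors was lower at an unadjusted p under 0.05, against 3.56% of all genes. Of 22 complex IV assembly factors 3 were lower, led by Cmc2 (-0.86), with a median of -0.08. Of 5 complex V factors 1 was, Fmc1 (-0.47). Higd2a, which promotes supercomplexes, had -0.62 (SE 0.18), 6.22, 6.20, 6.70 and 9.17 CPM in Bach2KO and 9.01, 12.6, 10.6 and 11.4 CPM in Bach2WT mice. Carriers that export ATP and import phosphate had a median of -0.07 over 7 genes, with Vdac2 of smallest p. For 7 genes that attach heme to cytochromes c or import mitochondrial proteins it was 0.01, with Gfer of smallest p. Transcriptional regulators of respiratory genes had a median of 0.19 over 14 genes, and 10 lay above 0. Nrf1, the gene of the factor whose letters are marked in the promoters, had 1.12, 1.04, 2.5 and 1.23 CPM in Bach2KO and 1.13, 0.85, 1.23 and 0.73 CPM in Bach2WT mice (log2 fold change 0.57, SE 0.34). None of the genes in these lists was called at an adjusted p under 0.05 in edgeR.

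The genotypes were also compared within each sex. The median log2 difference over the 40 tested members was -0.34 between the 2 female mice of each group and -0.16 between the 2 male mice of each group. In edgeR's sex by genotype interaction 0 members were called at an adjusted p under 0.05. At an unadjusted p under 0.05 there was 1 member (2.5%), where 6.14% of all genes passed. It was Atp5k, whose log2 fold change was 0.85 higher in males (adjusted p 0.81).

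Members with AT-rich transcripts had a median nearer to 0, with single estimates from -0.28 to 0.41. The 9 members with a GC content under 45% had a median log2 fold change of -0.06, and 5 were below 0. The 21 members of 45 to 55% GC had -0.25, with 20 below 0, and the 10 of 55% or more had -0.32, with 9 below 0. Over all genes the 3 medians were 0.11, 0.04 and 0.01. Across the 40 tested members Pearson's r was -0.34 and Spearman's rho -0.36, and rho was -0.08 across all genes. Without Cox4i2, r was -0.49 and rho -0.43 over 39 members. These correlations are across genes that share the same 8 libraries and are given as a description. With a correction for GC content rho was -0.31 over 40 members and -0.37 over 39. Of the 6 members above 0, Cox7b, Cox7c, Uqcrb and Atp5pb had 42.0, 38.4, 40.4 and 37.0% GC, Atp5mpl had 53.9% and Cox4i2 56.8%. Members were also short, with a median length of 1716 bases against 4270 for all genes.

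**Figure D5:**
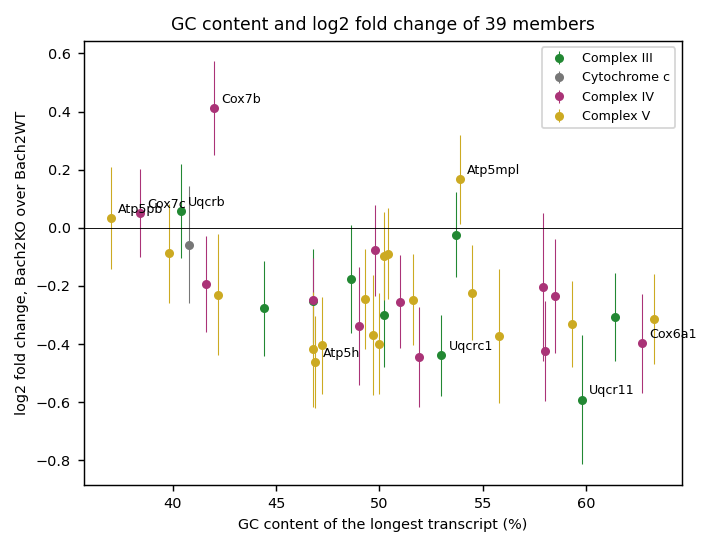
Log2 fold change of Bach2KO over Bach2WT (edgeR, bars show the standard error) against the GC content of the longest transcript for 39 members, coloured by complex. Members above 45% GC lie mostly between -0.1 and -0.6, and those below 45% lie on both sides of 0.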

How the data were processed

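RNA was isolated from homogenized pancreas of 8 mice, poly-A selected and sequenced in read pairs. The submitters' notes name fastp, HISAT2 2.2.1, featureCounts 2.0.6 and build mm39. The authors deposited 1 table of raw counts per gene and library. It also holds a signal, which the authors made by dividing counts by a size factor, and FPKM values deposited by the authors, used only as an alternative for levels. Its columns of fold changes and p-values were not used. The protocol in the labels describes both a directional and a non-directional kit without saying which was used, and how strand was set in counting is not given in the sources used here. Even numbers made up 58.9% to 61.95% of counts above 0, so both mates of a pair may have been counted.

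Counts were tested with edgeR 4.0.16 (R 4.3.3) by the quasi-likelihood test after filterByExpr and TMM scaling, with Benjamini-Hochberg adjustment over 12820 genes. DESeq2 1.42.0, another normalization (RLE), no scaling factor, filters, a sex covariate, gene length and GC corrections (loess, span 0.3), halved counts and leaving out each mouse were alternatives. TMM factors were 1.05 to 1.18 in Bach2KO mice and 1.10, 0.86, 0.83 and 0.83 in Bach2WT mice 1 to 4. GC content was known for 97.2% of genes. The code was tested on simulated data with a single dispersion for all genes. At the random seed used, edgeR stayed within the bound set for false calls and DESeq2 exceeded it. DESeq2's bound was then dropped and it is used as an alternative only.

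Groups came from the labels. The labels do not say how samples were handled beyond separate mice, and p-values measure the spread between these mice. The paper reports independent colonies in Rostock and Lübeck, and the labels used here give no site for a library. Every member is named, with values in every mouse for members with an unadjusted p under 0.05 or without overlap (at most 5 per complex), the highest member against its complex's direction and isoform pairs. From other lists the gene of smallest p is named. The members and lists were chosen with earlier results of these data known. Promoters were matched by symbol to RefSeq windows of GRCm38.p6, a different build from the table's. Intervals and floors cover counting error only.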

Additional observations from a re-analysis of the deposited data

Results flagged for a closer look

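A gap test within each genotype was run on log2 CPM, with 86 groups of 4 mice tested, and chance alone marks about 1 in 20. It marked 2 values, both of Bach2WT mouse 1. Cyc1 had a log2 CPM of 4.46 in this mouse, the lowest of its group, and 4.83 to 4.90 in the other 3 Bach2WT mice. Cox7a2 had 3.87 in this mouse and 4.45 to 4.50 in the other 3. Without this mouse 17 members were lower at an unadjusted p under 0.05 in edgeR, in place of 9. Over all genes 623 were, in place of 457.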

How the results depend on the processing

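No member was called at an adjusted p under 0.05 in any of the alternatives run. The medians of complexes III, IV and V kept their direction under every alternative but library totals with no scaling factor. There the median of all genes moved to 0.35, the split of genes at an unadjusted p under 0.05 became 1595 higher and 47 lower, and the medians were 0.035, 0.076 and 0.066. The members lower at that p were then 0 and the other pathway genes lower were 1, and each of the 3 medians stayed below that of all genes. Leaving out 1 mouse gave 2 to 17 members lower at that p (9 with all mice), and 8 (without Bach2WT mouse 2) to 28 (without Bach2KO mouse 3) other pathway genes (22 with all mice). Over all genes the same fits gave 273 to 632 lower (457 with all mice). Same-numbered mice deviated together by -0.05 to 0.21 (correlation of deviations), with 0.21 for the mice numbered 1, and differently numbered mice by -0.16 to 0.11. Same-numbered mice also share a sex, and this check cannot show whether they shared handling. With the replicate number as a block, 10 members and 489 of all 12820 genes were lower at that p, and 0 members were called.

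A total of 5 members changed sign relative to the median of all genes, of which Uqcr10, Uqcrb, Cox7c and Atp5pb lie close to 0. Values in this paragraph are log2 fold changes minus the median of all genes in the same fit, so they differ from those given above. Uqcr10 was 0.046 with the gene length correction and 0.034 with the block and that correction. Uqcrb was -0.058 with DESeq2, -0.052 with the GC correction and -0.059 with no filter, and -0.067 to 0.066 without 1 mouse. Cox7c was -0.062, -0.064 and -0.066 in the same 3 fits, and -0.070 to 0.099 without 1 mouse. Cox4i2, at 0.43 with a wide error, was -0.17 with sex as a covariate. Atp5pb, whose log2 fold change of 0.03 in the main fit lay below the all-gene median of 0.05, changed to above that median in some fits. It was 0.0080 with at least 10 counts in every library and 0.0013 with the replicate block, and -0.15 to 0.090 without 1 mouse. The causes were not tested. Depth limits the tissue-restricted subunits, with at most 38 counts in a library.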

Other observations

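Cox6a2, chosen here after its values were seen, was highest in the same 2 mice as the islet markers and the red blood cell markers. It had 0.50 CPM in Bach2WT mouse 4 and 0.38 CPM in Bach2KO mouse 3, and 0 to 0.16 CPM in the other 6 mice. The 10 islet markers summed to 2332 and 2045 CPM in these 2 mice and to 187 to 657 CPM in the others. Red blood cell markers summed to 259.7 and 209.7 CPM in these 2 mice and to 31.95 to 134.7 CPM in the others. Which cells the Cox6a2 counts came from was not tested. Cox6a2 reached at most 35 counts in a library.

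The 9 skeletal and heart muscle markers in the table summed to 0.24 to 0.64 CPM over all mice, with at most 55 counts for any of them, and the 4 brown fat markers in the table to 0.29 to 1.42 CPM. White fat markers, led by Plin1, summed to 31.3 and 24.4 CPM in Bach2WT mice 1 and 2, to 16.6 CPM in Bach2KO mouse 1 and to 3.51 to 6.02 CPM in the others. Markers of these lists were not called at an adjusted p under 0.05 in edgeR, and the gene of smallest p was Ckm for muscle and Prdm16 for brown fat.

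Markers of several other cell types had medians above that of all genes (0.05). The median log2 fold change was 0.85 for T cell markers (6 of 6 tested above 0, Trac with the smallest p), 0.40 for B and plasma cell markers (3 of 5, Ighm) and 0.51 for macrophage markers (7 of 10, Lyz2). It was 0.52 for endothelial markers (7 of 8, Cdh5), 0.46 for smooth muscle and pericyte markers (10 of 10, Cnn1) and 0.33 for islet markers (7 of 10, Gcg). Red blood cell markers had 0.10 (3 of 6, Alas2), duct markers 0.02 (5 of 9) and stellate cell and fibroblast markers -0.0033 (4 of 8, Pdgfra). Epcam, a duct and epithelial marker, had a log2 fold change of 0.81 (SE 0.20) without overlap between the groups, with an adjusted p of 0.35 in edgeR. None of these markers was called at an adjusted p under 0.05, and 0 of the 2 sperm cell markers in the table were tested. T cell markers summed to 0.93 to 3.02 CPM in Bach2KO and 0.19 to 2.2 CPM in Bach2WT mice. B and plasma cell markers summed to 148.2 CPM in Bach2KO mouse 1 and to 1.23 to 15.8 CPM in the other Bach2KO mice. In Bach2WT mice the same sum was 2.23 to 60.6 CPM. Outside Bach2KO mouse 1, the sums of Bach2KO mice thus lay within or below the Bach2WT range. In this list Cd79a and Cd79b had log2 fold changes of -1.22 and -0.71. The part of these cell types in the lower subunit values was not tested.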
